A study of Mus musculus with 3 samples.

Results

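The 9 genes Vpreb1, Vpreb3, Igll1, Cd79a, Cd79b, Blnk, Mzb1, Rag1 and Ebf1 were followed by name through a count table of 14721 genes; they are components of the pre-B cell receptor and genes that accompany its first expression. The table holds single-cell RNA-seq of bone marrow LSK cells, the lineage-negative fraction sorted for Sca-1 and Kit in which blood stem cells and multipotent progenitors lie, with each mRNA molecule counted once by its molecular identifier (UMI) near the 3′ end. The libraries were a DKO library with genotype Spop(D/D) Myd88(-/-), a KO library with genotype Spop(D/D) Myd88(+/+) and a WT library with genotype Spop(+/+) Myd88(+/+). DKO and KO thus share Spop(D/D), where Spop picks substrates for a CUL3 ubiquitin ligase and Myd88 relays signals from Toll-like receptors and the receptors of the interleukin-1 family. The labels do not spell out the D allele, name no Cre or promoter behind it, and give no strain, age, sex or number of animals. Each genotype has 1 library, so no difference between genotypes could be tested against a spread between animals, and every 95% interval below covers counting error only.

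The DKO, KO and WT libraries held 8184, 4920 and 8147 cells and 109920419, 101393024 and 85700749 UMIs, with medians of 12404.5, 17319 and 9245 UMIs per cell. Xist, the transcript of the inactive X chromosome, was at 1537 CPM (a gene's UMIs scaled to 1000000 UMIs of the library) in DKO, 0 in KO and 0.187 in WT, and the Y-linked Ddx3y was at 0, 32.2 and 43.9 CPM, so sex goes with genotype in both DKO comparisons and sex and genotype cannot be told apart. Spop was at 77.1 CPM in DKO, 63.1 in KO and 70.7 in WT, and Myd88 at 4.47, 25.8 and 13.7 CPM; a tag near the 3′ end can lie outside a deleted part, so these values do not check the labels. The libraries shared few cell barcodes, 46 between KO and WT, 83 between DKO and WT and 54 between DKO and KO.

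B cell development begins when early lymphoid progenitors switch on the transcription factor Ebf1 and then Pax5. The recombinase of Rag1 and Rag2 joins the heavy chain gene segments, and the heavy chain is first displayed with a surrogate light chain made of Vpreb1 and Igll1 (λ5), in place of the light chain that is not yet rearranged. Cd79a and Cd79b carry the signal into the cell and Blnk links the kinase Syk to its downstream enzymes. Vpreb3 binds immunoglobulin chains inside the cell, and Mzb1 is an endoplasmic reticulum protein of the B lineage that helps immunoglobulin to fold and assemble. LSK cells lie upstream of this step, and cells that make the pre-B receptor have usually lost most of their surface Kit.

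On GRCm38, the build that the submitters' processing notes call mm10, Vpreb1 (chr16:16868403-16870843) and Igll1 (chr16:16860671-16863985) are neighbours on the minus strand of chromosome 16. Vpreb3 lies at chr10:75943057-75949657 on the plus strand, Cd79a at chr7:24897381-24902197 on the plus strand, Cd79b at chr11:106311341-106314762 on the minus strand, Blnk at chr19:40928927-40994535 on the minus strand, Rag1 at chr2:101638282-101649501 on the minus strand and Ebf1 at chr11:44617317-45008091 on the plus strand. In the GENCODE vM21 annotation Vpreb1 shares 108 bases with Top3b on the opposite strand, and Rag1 shares all of its 11220 bases with a same-strand gene, B230118H07Rik, whose tags cannot be told from those of Rag1 where exons coincide. Vpreb1 also has a near-identical copy, Vpreb2, so reads could be assigned to either and the split between them is uncertain.

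Promoters of 4 of the genes are shown because they hold the letters that textbook work ties to early B gene control, and because the genes were high in the same cells in the results that follow. The sequences, from RefSeq on GRCm38.p6, are the 250 bases before the annotated start, 5′ to 3′ on the gene's strand, which for Vpreb1 and Vpreb3 is a RefSeq start inside the GENCODE gene. Capitals mark the EBF core CCCNNGGG, the octamer ATTTGCAT and the E-box CAGGTG, each on either strand (an E-box on the other strand reads CACCTG).
Igll1, chr16:16863986-16864235, minus strand: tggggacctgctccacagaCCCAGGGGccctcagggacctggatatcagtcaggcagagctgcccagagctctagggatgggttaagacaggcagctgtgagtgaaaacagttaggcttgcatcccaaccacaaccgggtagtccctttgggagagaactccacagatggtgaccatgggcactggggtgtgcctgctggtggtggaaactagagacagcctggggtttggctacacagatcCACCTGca
Vpreb1, chr16:16869256-16869505, minus strand: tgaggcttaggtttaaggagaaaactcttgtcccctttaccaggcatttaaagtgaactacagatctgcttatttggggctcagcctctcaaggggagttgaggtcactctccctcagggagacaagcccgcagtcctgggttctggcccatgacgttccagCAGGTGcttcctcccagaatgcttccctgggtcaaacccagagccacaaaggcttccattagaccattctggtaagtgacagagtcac
Vpreb3, chr10:75948050-75948299, plus strand: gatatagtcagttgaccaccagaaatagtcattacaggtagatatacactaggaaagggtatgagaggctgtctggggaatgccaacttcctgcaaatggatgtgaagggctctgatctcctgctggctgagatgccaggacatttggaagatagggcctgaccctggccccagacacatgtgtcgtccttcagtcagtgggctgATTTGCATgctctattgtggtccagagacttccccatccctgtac
Blnk, chr19:40994222-40994471, minus strand: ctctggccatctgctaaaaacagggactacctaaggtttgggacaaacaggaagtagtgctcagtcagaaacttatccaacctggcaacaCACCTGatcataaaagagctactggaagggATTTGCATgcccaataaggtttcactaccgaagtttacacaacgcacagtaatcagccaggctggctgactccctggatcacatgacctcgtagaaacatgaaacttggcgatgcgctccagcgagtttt

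Over windows of 300 bases (250 before and 50 after the start), 7 of the 9 genes had an entry, with 8 promoters since Ebf1 has 2. The EBF core was found in 1 of the 8, that of Igll1, and in 13.7% of all 32851 promoters. The octamer, the motif of Oct factors and their B cell coactivator Pou2af1, was found in the Vpreb3 and Blnk promoters, 2 of 8, and in 1.74% of all promoters. The E-box CAGGTG, a motif of E proteins such as Tcf3, was found in 5 of 8 promoters (Blnk, Cd79a, Igll1, Rag1 and Vpreb1) and in 20.2% of all. CAGCTG E-boxes were in 2 of 8 (Igll1 and Rag1) and in 16.3% of all, and the Ikaros core TGGGAA in 2 of 8 (Rag1 and 1 of the Ebf1 starts) and in 25.6% of all. The matches found did not overlap one another. These matches are letters in a window, not measured binding sites.

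All 9 genes were lower in KO and in DKO than in WT, and 8 of the 9 by at least 25.9-fold. Ebf1, the factor that starts the programme, was at 2.10 CPM in DKO (231 UMIs), 1.34 in KO (136 UMIs) and 147 in WT (12619 UMIs). That is 70.1-fold below WT in DKO (95% interval 61.5 to 80.2) and 110-fold below WT in KO (92.7 to 131). Ebf1 had the highest WT count of the 9. Rag1, the recombinase, was at 0.191 CPM in DKO (21 UMIs), was not detected in KO and was at 13.6 CPM in WT (1169 UMIs). With 3 counts as the limit that a count of 0 allows for the KO library, Rag1 in KO was lower than in WT by at least 461-fold. The lower end of its 95% interval was 374-fold. Rag1 in DKO was lower than in WT by 71.4-fold (46.5 to 116). No cell of 4920 in KO held a Rag1 UMI.

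The surrogate light chain genes and Vpreb3 followed the same order of libraries. Vpreb1 was at 5.16 CPM in DKO, 3.30 in KO and 141 in WT, which is 27.4-fold below WT in DKO (25.2 to 29.9) and 42.8-fold below WT in KO (38.4 to 47.9). Igll1 was at 1.82 CPM in DKO, 1.26 in KO and 127 in WT. Its fold below WT was 70.1 in DKO (60.9 to 81.0) and 101 in KO (84.8 to 121). Vpreb3 was at 1.82 CPM in DKO, 0.562 in KO and 94.8 in WT. It was 52.1-fold below WT in DKO (45.3 to 60.3) and 169-fold below WT in KO (130 to 223).

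Of the signalling chains, Cd79a was as low as the surrogate light chain genes and Cd79b stood apart. Cd79a was at 1.40 CPM in DKO, 0.7002 in KO and 92.7 in WT, 66.2-fold below WT in DKO (56.4 to 78.1) and 132-fold below WT in KO (104.9 to 170). Cd79b, the partner with which Cd79a forms the signalling dimer, was at 42.8 CPM in DKO, 29.9 in KO and 71.5 in WT. The KO level of Cd79b was 2.39-fold below WT (2.29 to 2.50) and the DKO level 1.67-fold below WT (1.61 to 1.73). The adaptor Blnk was at 1.48 CPM in DKO, 1.39 in KO and 41.4 in WT, 27.9-fold below WT in DKO (23.8 to 32.8) and 29.7-fold below WT in KO (25.1 to 35.5).

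Mzb1 needs its cells named. It lies at chr18:35647267-35649367 on the minus strand and shares 2100 bases with a gene of the same strand, SPATA24, whose tags cannot be told from those of Mzb1 where exons coincide. It was at 1.65 CPM in DKO (181 UMIs), 2.60 in KO (264 UMIs) and 67.3 in WT (5771 UMIs), but 206 of the 264 KO UMIs, 78.0%, came from 1 cell, and without that cell Mzb1 was at 0.572 CPM in KO. The fold below WT was 40.9 in DKO (35.3 to 47.7) and 25.9 in KO with that cell (22.9 to 29.4). The cell held 26020 UMIs, of which 600 were Jchain, the joining chain of secreted IgM and IgA, of 672 in the whole KO library, 155 were Cd74 and 46 were Xbp1. It held no UMI of Vpreb1, Vpreb3, Igll1, Ebf1 or Rag1, and no Ms4a1 or Cd22, but 9 of Cd79a. In every other gene of the 9, the highest single cell held at most 31.0% of the UMIs of any library.

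**Figure D1:**
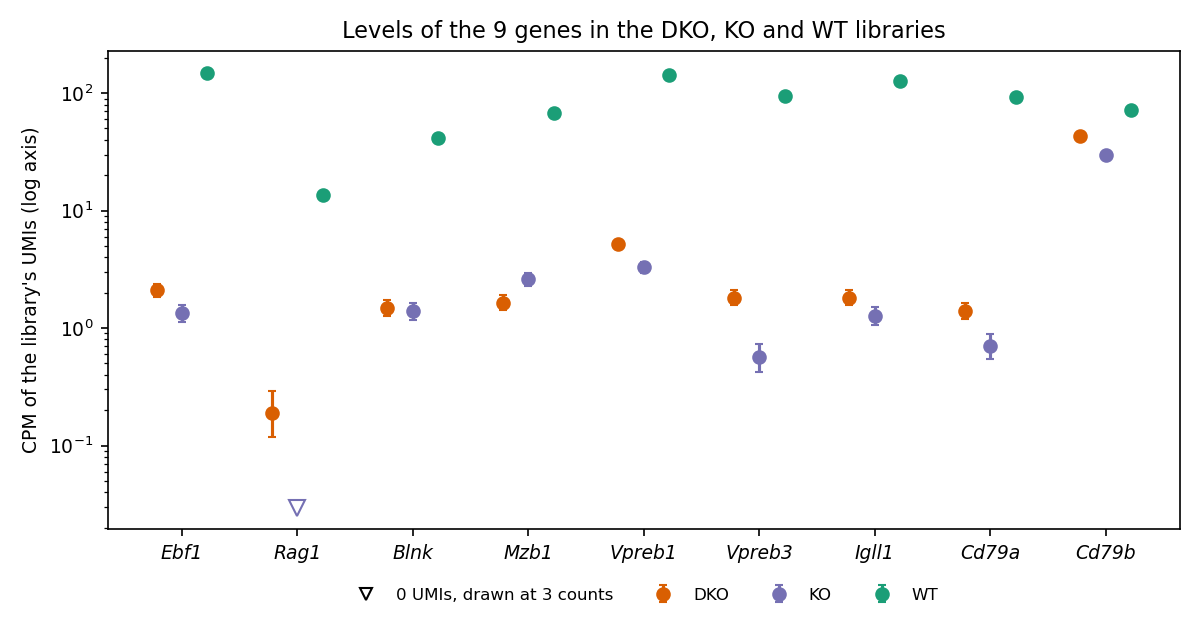
Levels of the 9 genes (CPM of all UMIs of a library, log axis) in the DKO, KO and WT libraries, 1 library each; bars are exact Poisson 95% intervals and the open triangle marks Rag1 in KO, which had 0 UMIs and is drawn at 3 counts. WT lies above the other libraries for every gene, and the gap is narrow only for Cd79b, at 42.8, 29.9 and 71.5 CPM.

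Counted by a threshold of 1.5-fold at a mean of at least 5 CPM over the pair, 9 of 9 genes were lower in KO than in WT and 9 of 9 lower in DKO than in WT. The same threshold took in 17.1% of 9046 genes for KO below WT and 3.55% of 9205 genes for DKO below WT. All genes of the 9 but Cd79b reached the mean of 5 CPM through their WT level, so the minimum itself favours a call of lower. With no minimum level the counts were also 9 and 9. The median log2 ratio of the 9 was -6.66 for KO over WT, with Rag1 at its bound, against -0.08 over all genes, and -5.70 for DKO over WT, against 0.06 over all genes. Both comparisons use the same WT library.

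Between DKO and KO the comparison was at low levels in both libraries for every gene but Cd79b. Only Cd79b reached a mean of 5 CPM, and it was 1.43-fold higher in DKO (1.37 to 1.498), short of the threshold, which 17.9% of 8973 genes passed in that direction. Vpreb3 was 3.24-fold higher in DKO than in KO (2.40 to 4.42), Cd79a 2.001-fold (1.501 to 2.69), Ebf1 1.57-fold (1.26 to 1.95), Vpreb1 1.56-fold (1.36 to 1.79) and Igll1 1.44-fold (1.15 to 1.81). For Blnk the ratio of 1.07 had an interval from 0.846 to 1.35. Rag1, with 21 UMIs in DKO and 0 in KO, gave only a bound, an interval from 4.80-fold higher in DKO upward. The Mzb1 ratio was 0.632 (0.521 to 0.767), and without the Jchain-rich KO cell its log2 value was 1.52 in place of -0.66.

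Cells that held several of the genes at once were far fewer in DKO and KO than in WT. To compare cells at 1 depth, each was thinned at random to 3500 UMIs, which left out no cell, and a gene counts as held where at least 1 UMI remained. In DKO 15 of 8184 cells held 3 or more of the 9 genes (0.183%, 0.103 to 0.302), in KO 6 of 4920 (0.122%, 0.0448 to 0.265) and in WT 700 of 8147 (8.59%, 7.99 to 9.22). Without thinning these shares were 0.464%, 0.610% and 11.7%. All 9 genes at once were held by 1 cell in DKO, 0 in KO, which allows a share of up to 0.0610%, and 44 in WT. The intervals of the DKO and KO shares overlap, and both lie below that of WT.

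**Figure D2:**
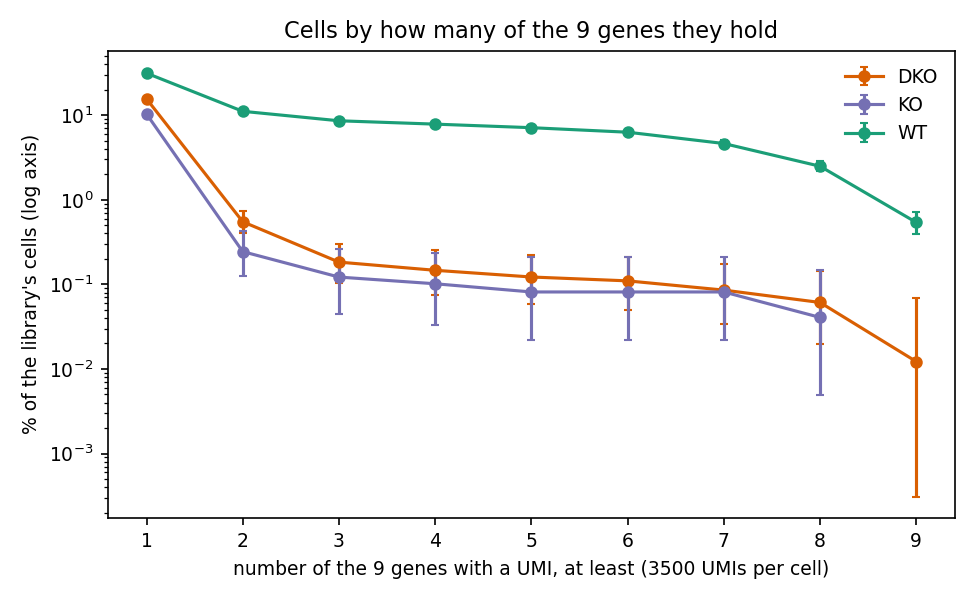
Share of each library's cells (%, log axis) that held at least the given number of the 9 genes after thinning to 3500 UMIs per cell; bars are exact Clopper-Pearson 95% intervals. From 1 to 3 genes the share falls from 31.4% to 8.59% in WT, from 15.6% to 0.183% in DKO and from 10.3% to 0.122% in KO. At 6 genes it is 6.30% in WT, 0.110% in DKO and 0.0813% in KO.

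The level within such cells was set apart from their number by reading each gene in cells that held 3 or more of the other 8. For Vpreb1 those were 14 cells in DKO, 6 in KO and 693 in WT, with 1334, 690 and 1229 CPM. Relative to WT the ratio was 1.09 in DKO (0.951 to 1.23) and 0.562 in KO (0.447 to 0.697), against 0.0365 and 0.0234 over whole libraries. Ebf1 was at 1071 CPM in 13 DKO cells, 823 CPM in 6 KO cells and 1310 CPM in 657 WT cells, a ratio to WT of 0.818 in DKO (0.703 to 0.946) and 0.629 in KO (0.511 to 0.766). Over the 9 genes the ratio of DKO to WT in these cells ran from 0.498 for Rag1 to 1.39 for Cd79b, and that of KO to WT from 0.363 for Blnk to 0.736 for Cd79b, with no Rag1 UMI in KO. The cells of a library come from 1 sample, and the KO cells read for Vpreb1 and Ebf1 include the Jchain-rich one.

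In WT these cells held most of what the library had. They carried 94.2% of the Vpreb1 UMIs, 96.4% of Vpreb3, 96.2% of Igll1, 96.0% of Cd79a, 92.6% of Ebf1, 89.0% of Mzb1, 84.3% of Rag1 and 74.4% of Blnk, but 52.3% of Cd79b. In DKO and KO they carried 1.72% and 1.02% of the Cd79b UMIs. Outside them Cd79b was at 42.2 CPM in DKO, 29.7 in KO and 38.2 in WT, a ratio of 1.10 for DKO over WT (1.05 to 1.16) and 0.777 for KO over WT (0.738 to 0.818). The library-wide difference in Cd79b between DKO and WT thus has the opposite sign outside these cells. Outside them the other 8 genes stayed lower in both, from 3.08-fold for Vpreb1 to 31.2-fold for Igll1 in DKO, and from 3.69-fold for Vpreb1 to 38.4-fold for Vpreb3 in KO, leaving out Rag1, which had no UMI, and Mzb1. For Mzb1 the KO fold was 3.52, but 206 of its 239 KO UMIs there were those of the Jchain-rich cell, and without that cell it was at 0.326 CPM, 25.5-fold below WT (17.97 to 37.4). The WT level outside these cells includes UMIs in cell types that should lack the genes, given with the clusters, and their part in these folds was not tested.

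**Figure D3:**
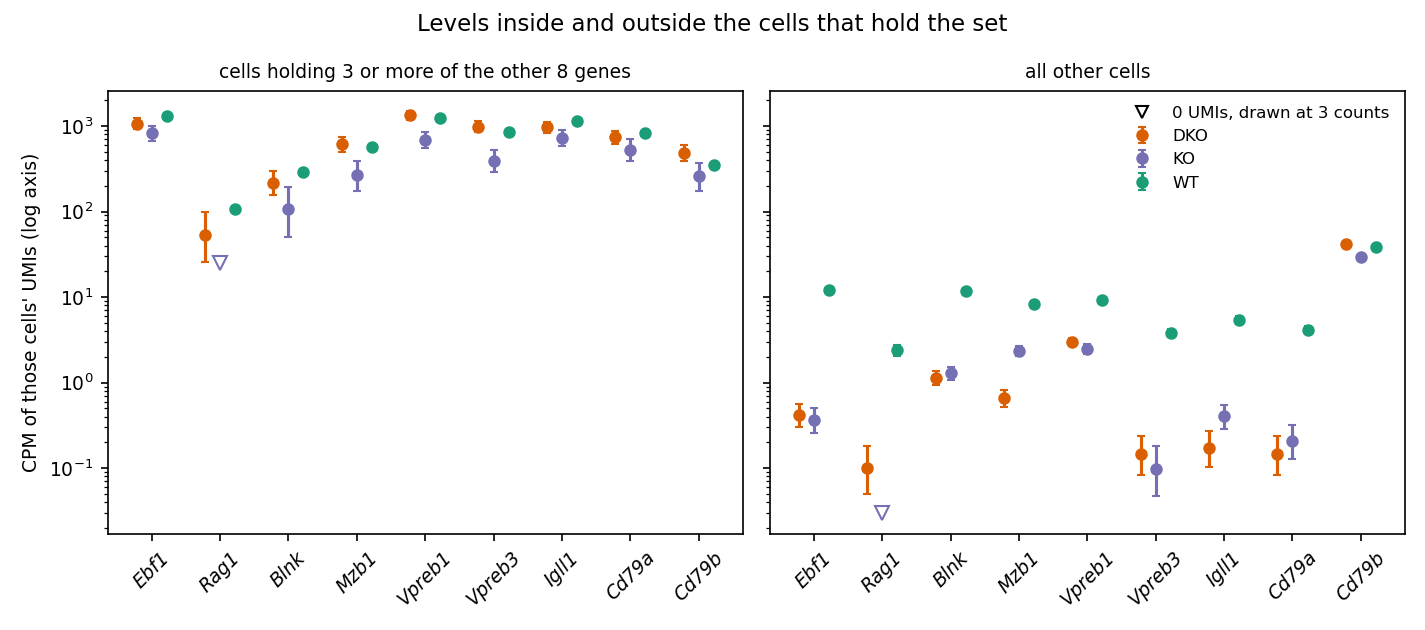
CPM (log axis) of each gene in cells holding 3 or more of the other 8 genes (left) and in all other cells (right), for DKO, KO and WT; bars are exact Poisson 95% intervals, and open triangles mark 0 UMIs, drawn at 3 counts. On the left KO is the lowest library for every gene (Vpreb3 at 985, 391 and 841 CPM and Blnk at 218, 106 and 292 CPM in DKO, KO and WT), and on the right WT is above DKO and KO for all genes but Cd79b.

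The 5 KO cells with Ebf1 held many genes of the stage but no UMI of some others. They held 14 to 29 Ebf1 UMIs each, 5 to 35 of Vpreb1, 4 to 14 of Vpreb3, 7 to 32 of Igll1 and 2 to 17 of Cd79a. None held a UMI of Pax5, the factor that commits the lineage, of Vpreb2 or of Rag1. In those 5 cells (94207 UMIs) 0 counts of Pax5 allow up to 31.8 CPM by the limit of 3 counts, and Pax5 was at 117 CPM in 14 DKO cells with Ebf1 and at 134 CPM in 688 WT cells with Ebf1. Vpreb2 was at 217 CPM in DKO and 170 CPM in WT cells of that kind, and Rag1 at 55.6 CPM in DKO and 110 CPM in WT. Over the whole KO library Pax5, Vpreb2, Rag1, Blk, Lef1 and Spib had 0 UMIs. Other genes of the stage were present in the 5 KO cells. Chchd10 was at 1162 CPM in DKO, 881 in KO and 1329 in WT cells with Ebf1, Bfsp2 at 606, 255 and 679 CPM, and Il7r, the interleukin-7 receptor chain, at 117, 170 and 129 CPM.

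Of the 15 DKO cells, 14 held Ebf1, 12 Vpreb1, 12 Cd79a, 11 Vpreb3, 10 Igll1 and 7 Rag1. Their Ebf1 counts ranged from 0 to 29 UMIs and their Vpreb1 counts from 0 to 44. A DKO cell outside this pattern held 21 UMIs of Mzb1, 17 of Cd79a and 182 of Cd74 but 1 of Ebf1 and none of Vpreb1, Igll1, Vpreb3 or Dntt. None of the 21 DKO and KO cells shared its barcode with a WT cell. Xist was held by 13 of the 15 DKO cells (1017 CPM over all 15) and by 98.6% of all DKO cells, and none of the 15 held Ddx3y; the 2 cells with no Xist had 4801 and 14354 UMIs. WT cells with 3 or more genes held Ddx3y at 37.2 CPM, in 252 of 700 cells, and no Xist. The 5 KO cells with Ebf1 held neither marker. Of the cells with the highest doublet scores, 0 were among the 15 DKO and 6 KO cells and 44 among the 700 WT cells.

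The WT cells that held 3 or more genes were checked against the gate and against other lineages. Kit was at 27.2 CPM in them against 105.2 CPM in WT cells with none of the 9, Cd34 at 54.5 against 371 CPM, and Ly6a (Sca-1) at 110 against 85.8 CPM. Dntt, the terminal transferase of lymphoid progenitors, was at 1322 against 294 CPM. In the DKO cells with 3 or more genes Kit was at 21.4 CPM, against 66.7 CPM in DKO cells with none. In the KO cells with 3 or more genes it was at 8.32 CPM, against 42.0 CPM in KO cells with none. That KO value is 1 UMI, in the Jchain-rich cell, and lies below the limit of 3 counts. All 18 listed B lineage markers outside the 9 genes had UMIs in the WT cells, summing to 3970 CPM. The mature B and plasma cell list summed to 149 CPM in the WT cells, with Ms4a1 at 0.107 CPM and Fcer2a at 0, and mature neutrophil markers summed to 73.8 CPM. In the DKO cells 17 of 18 B lineage markers had UMIs (3945 CPM summed), and in the KO cells 11 of 18 (1747 CPM). Mature B and plasma cell markers summed to 1258 CPM in DKO and 6879 CPM in KO cells, where Jchain alone was at 4991 CPM in KO, with Ms4a1, Cd22 and Fcer2a at 0 in both. Erythroid markers summed to 171 CPM in the DKO cells (5 of 15 with a UMI), 1838 CPM in the KO cells (15 of 15) and 143 CPM in the WT cells (11 of 15). Over all cells of DKO, KO and WT they summed to 845, 1609 and 680.5 CPM. The part of erythroid markers in the KO levels was not tested. Monocyte-dendritic progenitor markers summed to 1568 CPM in DKO (8 of 13 with a UMI), 1888 CPM in KO (7 of 13) and 326 CPM in WT cells (11 of 13). Over all cells of DKO, KO and WT that list summed to 273, 396 and 307 CPM. Cd74 is on this list and on the mature B and plasma cell list, so its UMIs count in both sums. A single DKO cell held 182 Cd74 UMIs and the Jchain-rich KO cell 155. No other of these DKO and KO cells held more than 10. Neutrophil progenitor markers summed to 1392, 2786 and 1094 CPM in DKO, KO and WT (9, 9 and 11 of 11), with Cebpe and Fcnb at 0 in DKO and KO. Over all cells they summed to 3926, 9539 and 2466 CPM. Stem cell markers summed to 1071, 1896 and 469 CPM (8, 9 and 15 of 15), against 1410.5, 1999 and 1548 CPM over all cells. The plasmacytoid dendritic list summed to 589, 898 and 458 CPM and the megakaryocyte progenitor list to 439, 441 and 378 CPM in the same order. The part of these lists in the levels of the 9 genes was not tested.

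Cells were then grouped without using the 9 genes, by clustering the other variable genes of all libraries together. A cluster led by Bfsp2, Chchd10, Pax5 and Vpreb2 was named B lineage-like from 10 of its 15 leading genes and held 9 DKO, 2 KO and 445 WT cells. Of these, 9, 2 and 444 held 3 or more of the 9 genes. A neighbouring cluster led by Ly6d, Dntt, Cox6a2 and Il7r stayed unnamed, with 3 B lineage and 2 lymphoid-primed markers among its leading genes; it held 243 DKO, 67 KO and 946 WT cells. There, 4 DKO cells (1.65%, 0.450 to 4.16), 1 KO cell (1.49%, 0.0378 to 8.04) and 239 WT cells (25.3%, 22.5 to 28.2) held 3 or more. Lymphoid-primed-like cells numbered 623 in DKO, 29 in KO and 1484 in WT, and 2, 0 and 5 of them held 3 or more. Of the KO cells that held 3 or more, 2 others lay in an unnamed cluster led by Vldlr and Ifitm1, with 9 DKO, 1483 KO and 17 WT cells. These 2 held 28811 and 29813 UMIs. The Jchain-rich KO cell lay in an erythroid-like cluster led by Hbb-bs and Hba-a1, with 2 DKO, 986 KO and 3 WT cells. Library and genotype are the same thing here, so a cluster mostly of 1 library may reflect that library.

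Within the cluster led by Ly6d, Dntt and Il7r the genes were still lower in both mutant libraries, by less than over whole libraries except for Rag1 in KO, which gives only a bound. Ebf1 was at 13.5 CPM in DKO, 46.2 in KO and 266 in WT, 19.6-fold below WT in DKO (14.97 to 26.3) and 5.75-fold below WT in KO (4.24 to 7.9996). Rag1 was at 2.30 CPM in DKO, had 0 UMIs in KO and was at 58.9 CPM in WT; the KO value is at least 17.8-fold below WT by the limit of 3 counts. Igll1 was at 5.11, 19.8 and 52.1 CPM and Vpreb1 at 18.4, 19.8 and 77.5 CPM in DKO, KO and WT. Cd79b was at 50.9 CPM in DKO, 44.0 in KO and 77.3 in WT. Here Ebf1 was 3.41-fold lower in DKO than in KO (2.22 to 5.21), which reverses their order over whole libraries. Several of these levels rest on the 4 DKO cells and 1 KO cell of the cluster that held 3 or more genes. All 18 KO UMIs of Igll1 and all 13 of Vpreb3 came from the 1 KO cell, as did 16 of the 42 of Ebf1, and the DKO cells gave 18 of 20 Igll1 and 24 of 53 Ebf1 UMIs. Without the cells holding 3 or more genes, Ebf1 in the cluster was at 7.51 CPM in 239 DKO cells, 28.9 in 66 KO cells and 57.1 in 707 WT cells, 3.86-fold lower in DKO than in KO (2.18 to 6.78). Vpreb1 was then at 8.28 CPM in DKO, 13.4 in KO and 16.3 in WT, and Cd79b at 46.6, 43.4 and 35.9 CPM. Ly6d itself, which led the cluster, was at 170, 286 and 797 CPM in DKO, KO and WT, so the cluster's cells were not alike in the libraries, and the part of that in the differences was not tested.

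Outside both clusters the levels were low, and Vpreb1 was the highest of the surrogate light chain genes there. Vpreb1 was at 2.79 CPM in DKO, 2.55 in KO and 9.02 in WT, and Vpreb3 at 0.123, 0.259 and 4.004 CPM. In WT, megakaryocyte progenitor-like cells, which should lack these genes, had Vpreb1 at 13.1 CPM, Igll1 at 6.40 and Ebf1 at 3.74. The values of those 3 genes in WT stem cell-like and lymphoid-primed-like cells were near or below these. They are not read as expression, and what they come from was not tested. Among KO cells Vpreb1 was at 1.97 CPM in neutrophil progenitor-like cells (1.59 to 2.40, median 32864 UMIs per cell) and 3.51 in erythroid-like cells (2.72 to 4.47, median 14394 UMIs). KO cells with 3 or more other genes held 83 UMIs of Vpreb1 and 47 of Vpreb3, and the rest of the KO cells 252 and 10, so the pair was not in 1 ratio, and what the low Vpreb1 level of the other cells comes from was not tested. Cd79b was present in most types: in KO it was at 35.9 CPM in neutrophil progenitor-like and 26.8 in megakaryocyte progenitor-like cells but at 6.28 in erythroid-like cells, and in DKO at 60.4 CPM in lymphoid-primed-like, 48.3 in stem cell-like and 16.8 in erythroid-like cells. Cd79b was lowest in the erythroid-like cells of WT too, at 7.53 CPM (2.44 to 17.6, 48 cells).

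The WT library held enough such cells to order the genes. WT cells, thinned to 3500 UMIs, were binned by how many of the other 8 genes they held, and the onset of a gene was taken as the first bin of at least 20 cells at which its level passed 50% of its highest bin. Rag1, Blnk and Mzb1 passed at 3 other genes, Ebf1 at 4, and Vpreb1, Vpreb3, Igll1, Cd79a and Cd79b at 5. Some of these calls lay near the 50% line. At 3 other genes Mzb1 was at 50.8% (374 CPM, 300 to 460) and Blnk at 54.2% (241 CPM, 181 to 315) of highest bins of 736 and 444 CPM. Cd79a was at 49.8% at 4 other genes (550 CPM, 467 to 644). Counting error thus does not fix the bin of Mzb1, Blnk or Cd79a. The order is one of cells in 1 sample, not a time course, and a gene of low level is seen later than one of high level at the same depth. Rag1, with 263 WT cells holding it the least detected of the 9, nevertheless stood among the first by this measure. The measure is set against each gene's own highest bin, which for Rag1 came at 5 other genes. At 3 other genes Rag1 was held by 36.8% of 68 cells and Ebf1 by 74.3% of 70. Of the 263 cells with Rag1, 79.8% also held Ebf1.

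At 2 other genes, where 193 cells were read for Ebf1, Ebf1 was at 142 CPM (7.69% of its highest bin) and was held by 22.3% of cells. Blnk stood at 72.7 CPM (16.4% of its highest bin) in 173 such cells, and Mzb1 at 75.1 CPM (10.2%) in 194 cells. The surrogate light chain genes and Vpreb3 were low there, with Vpreb1 at 12.2 CPM (0.691%), Vpreb3 at 5.92 CPM (0.508%) and Igll1 at 11.1 CPM (0.755%). At 3 other genes Ebf1 was held by 74.3% of 70 cells at 645 CPM, whereas Vpreb1 was held by 15.6% of 64 cells at 156 CPM. At 5 other genes Vpreb1 reached 1061 CPM, Igll1 941 CPM and Vpreb3 781 CPM. Cd79a came between, at 271 CPM in 76 cells at 3 other genes and at 550 CPM, 49.8% of its highest bin, at 4.

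Rag1 was highest in the middle of the order. It was at 181 CPM at 3 other genes, 189 at 4, 256 at 5 (78 cells) and then 114, 107 and 93.5 CPM at 6, 7 and 8. The share of cells holding Rag1 was 46.2% at 5 and 22.5% at 7. Ebf1, Mzb1 and Blnk were highest at 8 other genes, at 1848, 736 and 444 CPM. Vpreb1, Vpreb3, Igll1, Cd79a and Cd79b were highest at 7. The share of cycling cells was 7.49% (4.15 to 12.2) in 187 WT cells with 3 to 5 of the 9 genes, 23.5% (18.9 to 28.7) in 310 cells with 6 to 7 and 30.5% (24.3 to 37.4) in 203 cells with 8 to 9; median depth was 9274, 13456 and 13863 UMIs per cell in the same groups, and its part in the cycling shares was not tested.

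**Figure D4:**
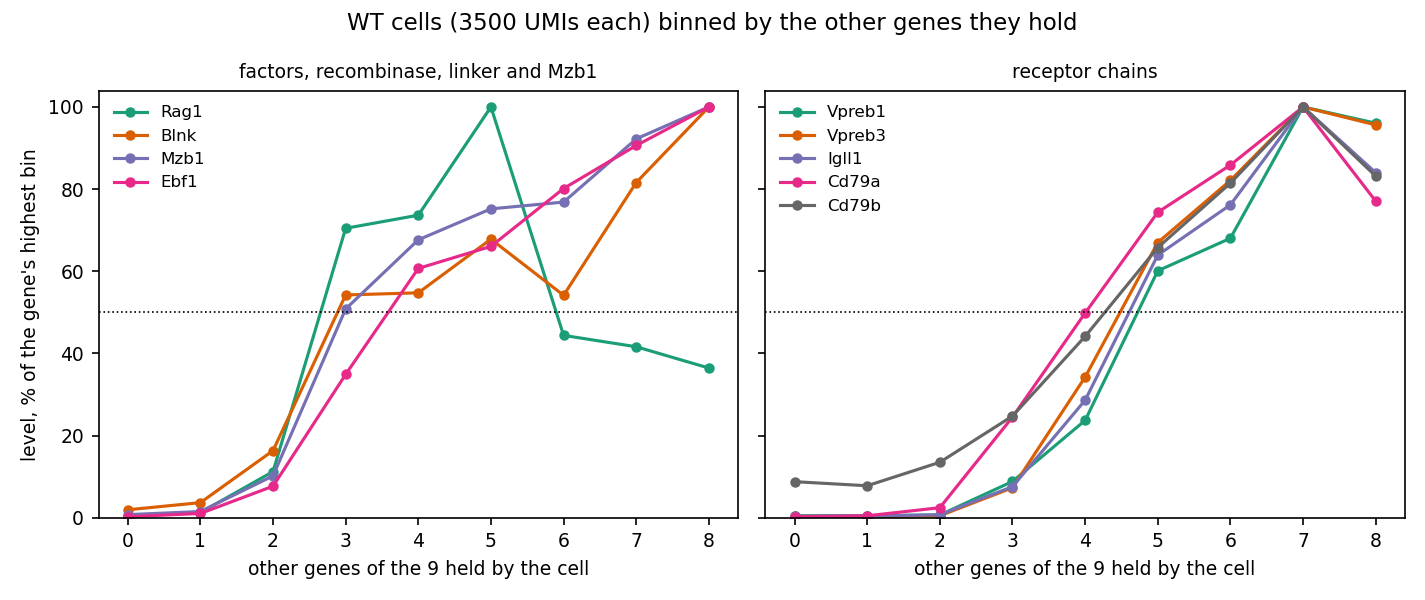
Level of each gene in WT cells (3500 UMIs each) as % of its highest bin, by the number of the other 8 genes the cell held. The dotted line marks 50%. The left panel holds Rag1, Blnk, Mzb1 and Ebf1, and the right panel the receptor chains together with Vpreb3. Rag1 peaks at 5 other genes and is at 36.5% at 8, and the surrogate light chain genes cross 50% at 5.

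In clusters made without the 9 genes, each gene was read in the Ly6d-led cluster as a share of its B lineage-like level. Rag1 and Blnk had the highest shares and the surrogate light chain genes the lowest. Such a share also depends on the B lineage-like level. In the bins above, Rag1 fell from 256 CPM at 5 other genes to 93.5 CPM at 8, so its share does not place it ahead of Ebf1. From stem cell-like through lymphoid-primed-like cells and the cluster led by Ly6d, Dntt and Il7r to B lineage-like WT cells, Ebf1 was at 2.69, 3.16, 266 and 1356 CPM and Rag1 at 0.336, 1.25, 58.9 and 72.1 CPM. Rag1 thus stood at 81.8% of its B lineage-like level in the Ly6d-led cluster. Blnk stood at 37.1% of its B lineage-like level there, Mzb1 at 22.1%, Cd79b at 20.1%, Ebf1 at 19.6% and Cd79a at 14.4%. Vpreb3 and the surrogate light chain genes had the lowest shares, with Vpreb3 at 7.64%, Vpreb1 at 5.10% and Igll1 at 3.67%. Igll1 went through 7.56, 4.62, 52.1 and 1418 CPM over the 4 groups of cells, and Cd79b through 37.9, 44.6, 77.3 and 385 CPM. In stem cell-like cells Cd79b was at 9.86% of its B lineage-like level, and each of the other 8 genes at under 1%.

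**Figure D5:**
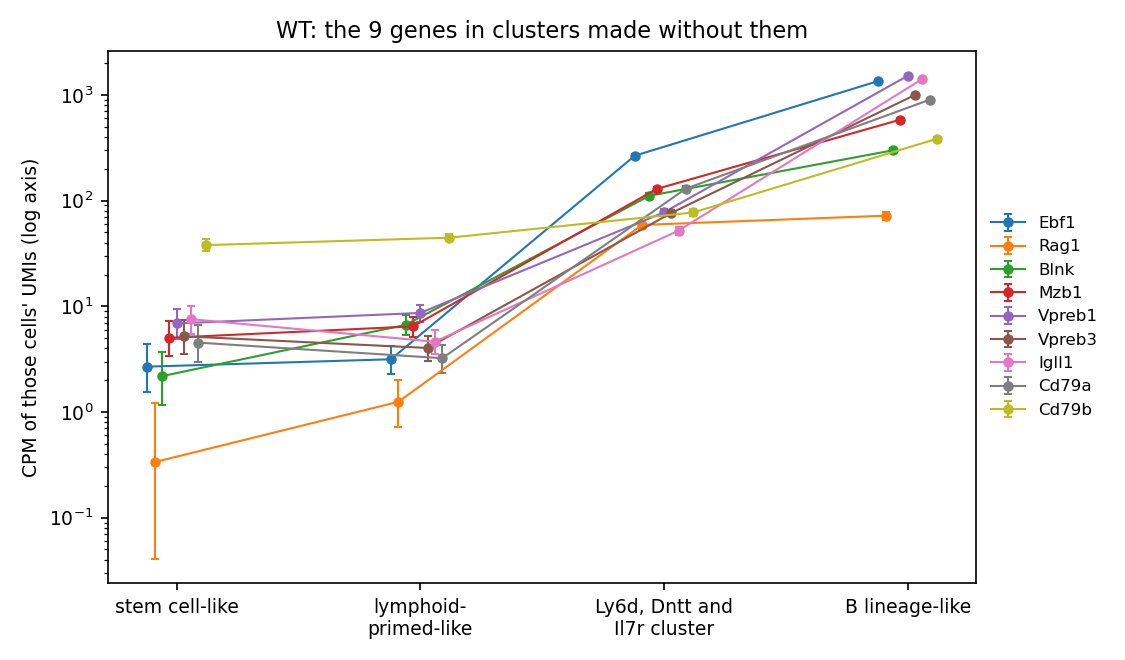
CPM (log axis) of the 9 genes in WT stem cell-like, lymphoid-primed-like, Ly6d, Dntt and Il7r cluster, and B lineage-like cells, from clusters made without the 9 genes; bars are exact Poisson 95% intervals. Rag1 is level over the last groups (58.9 and 72.1 CPM), whereas Igll1 is at 52.1 and 1418 CPM.

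Within single WT cells the genes overlapped unequally. Of 657 WT cells with Cd79a, 84.6% also held Ebf1 and 8.07% held no other of the 9. Of 1406 cells with Cd79b, 59.8% held no other and 31.4% held Ebf1. Of 793 cells with Ebf1, 63.4% held Vpreb1, 60.5% Igll1 and 26.5% Rag1, and 10.5% held none. Vpreb1 and Igll1, whose proteins pair, were both held by 476 cells, Vpreb1 alone of the pair by 273 and Igll1 alone by 176. Over the 8147 WT cells, the Pearson correlation of a gene's log-normalized value with the sum of the other 8 was 0.93 for Cd79a, 0.92 for Ebf1, 0.87 for Vpreb1, Vpreb3, Igll1 and Mzb1, 0.76 for Blnk, 0.61 for Cd79b and 0.55 for Rag1; cells of 1 library share their depth and source, and these values are descriptions.

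The genes outside the set most like it were taken as the 10 highest correlations with the summed log-normalized values of the 9 over 8147 WT cells, among 9209 genes with at least 5 CPM in WT. Among them were Bfsp2 (0.78), Pax5 (0.78), Chchd10 (0.77), Vpreb2 (0.74), Cecr2 (0.73), Pou2af1 (0.69), Pde2a (0.64), Id3 (0.64) and Gfra2 (0.61). Pax5 was at 0.200 CPM in DKO, 0 in KO and 14.9 in WT. Bfsp2 was at 8.99, 4.29 and 89.0 CPM in DKO, KO and WT. Chchd10, at 65.6 CPM in DKO, 120 in KO and 199 in WT, was also found outside the WT cells with 3 or more genes, at 62.4 CPM.

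Other genes of the pathway were read from a list of 40 partners, 38 of them in the table. For KO over WT, 27 reached a mean of 5 CPM, of which 19 were at least 1.5-fold lower and 0 higher, against 17.1% of 9046 genes lower. The lowest were Vpreb2 and Pax5, with 0 UMIs in KO and so at least 653-fold and 504-fold lower, then Ly6d (40.4-fold lower) and Id3 (33.3-fold lower). The 4 highest were within the threshold: Spi1, the PU.1 factor, at a ratio of 1.10, the kinase Lyn at 1.03, Cd24a at 1.0002 and the repair kinase Prkdc at 0.953. For DKO over WT, 28 were measured, 12 lower and 0 higher, against 3.55% of 9205 genes lower. Pax5 was 74.5-fold lower, Vpreb2 48.3-fold, Ly6d 21.4-fold and Id3 13.1-fold, and at the top were Lyn (1.23), Bcl2 (1.16), Spi1 (1.14) and Cd72 (1.12). For DKO over KO, 22 were measured, 0 lower and 9 higher, against 17.9% of 8973 genes higher. No share over all genes is given for the counts of 0. The highest were Cd72 at a ratio of 5.13, Sox4 at 3.01, Flt3, the cytokine receptor of lymphoid progenitors, at 2.98 and Dntt at 2.20. Irf8 (0.676), Cd24a (0.823), Prkdc (0.894) and Spi1 (1.04) stood lowest. The median log2 ratio of the measured partners was -1.04 for KO over WT, -0.34 for DKO over WT and 0.46 for DKO over KO, against -0.08, 0.06 and 0.13 over all genes.

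Along the same WT bins, by how many of the 9 genes a cell held, the early lymphoid genes Dntt, Ly6d and Flt3 were highest at 3 genes, whereas Pax5 was higher in cells with more. Dntt was at 294 CPM in cells with none, 2450 in the 61 cells with 3 and 1002 in the 174 cells with 7. Ly6d was at 29.1, 1360 and 619 CPM, and Flt3 at 133, 315 and 71.3 CPM in the same bins. Pax5 was at 0.345 CPM in cells with none, 13.5 CPM at 3 and 153 CPM at 7. Kit was at 105.2, 25.4 and 28.4 CPM, while Ly6a was at 85.8, 122 and 108 CPM.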

How the data were processed

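Single-cell 3′ RNA-seq of LSK cells was read from the counts of UMIs per gene and cell that the authors deposited, as whole numbers without normalization. Per the submitters' processing notes, the tools were Cell Ranger, bcl2fastq and Seurat, on build mm10; their versions, roles and cell filters are not given in the sources used here. The genes, partner list and marker lists were chosen with earlier results of these data known. Counts were summed per library, since cells are not replicates, and divided by all UMIs (CPM); with 1 library per genotype no test was run. Intervals (95%) are exact Poisson for levels, exact conditional binomial for ratios and Clopper-Pearson for shares; they cover counting error only, and 0 counts were set to a limit of 3. Cells were thinned to 3500 UMIs for shares. Clusters came from 2000 variable genes other than the 9, with sex-linked, mitochondrial, ribosomal and cell cycle genes left out, 30 components, 20 neighbours and Leiden resolution 1 (scanpy 1.11.5, leidenalg 0.10.2), and were named from at least 3 markers of a list among 15 top genes with a lead of 2. No doublet was removed in the values reported: Scrublet called 0.0489% of DKO, 0.793% of KO and 0.0245% of WT cells, too few in DKO and WT to have worked, so removal by its score, 536 DKO, 194 KO and 531 WT cells, was an alternative. Genes named are the 9, the 4 lowest and 4 highest partners per comparison and those of the 10 closest genes in WT that are reported; 1 is not reported here. Promoter sequences are from RefSeq (GRCm38.p6); positions are from GENCODE vM21. Alternative scalings used edgeR 4.0.16 in R 4.3.3. Statistics were tested on simulated data.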

Additional observations from a re-analysis of the deposited data

How the results depend on the processing

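No paired analysis was possible because there is 1 library per genotype, and no library could be left out. Of 124 values recomputed under an alternative, 77 stayed within 1.5 times the reported count or within the stated error, 46 moved and 1 reversed. Without the cells holding 3 or more of the 9 genes, 2 of the 3 genes still measured were lower in KO than in WT and 2 of 3 in DKO than in WT; the median log2 ratios were then -4.46 for KO over WT, -4.25 for DKO over WT and 0.30 for DKO over KO. With cells thinned before summing, the medians were -5.86 for KO over WT and -4.99 for DKO over WT, and with equal weight per cell -5.78 and -4.85. The count of genes higher in DKO than in KO was 0 as reported, 1 with thinning, with equal weight per cell or with totals leaving out the 50 most abundant genes, and 5 with no minimum level; median-of-ratios scaling gave a DKO over KO median of 0.44. Without the KO cell with most Mzb1 UMIs, left out after seeing the data, the Mzb1 log2 ratio was -6.88 for KO over WT and 1.52 for DKO over KO. The share of cells holding at least 3 genes was 0.464% in DKO, 0.610% in KO and 11.7% in WT without thinning and 9.73% in WT at 5500 UMIs. At least 2 genes were held by 0.550% of DKO and 11.1% of WT cells, and at least 5 by 7.12% of WT cells. At 5500 UMIs the onset was at 4 other genes for Blnk, 5 for Mzb1 and Ebf1, and 6 for Vpreb1, Vpreb3, Igll1 and Cd79b. Without thinning it was at 5 for Rag1, Blnk and Mzb1, 6 for Ebf1, Vpreb3, Cd79a and Cd79b, and 7 for Vpreb1 and Igll1. At 25% of the top level, Ebf1 was at 3 and Vpreb3, Igll1, Cd79a and Cd79b at 4. By the bin where 50% of cells held the gene, Ebf1 was at 3 and Cd79a at 4, and Rag1 had no value. Without the highest doublet scores Cd79a was at 4. In every one of these runs that gave a value Rag1 and Blnk came no later than Ebf1, and Ebf1 no later than Vpreb1 and Igll1. The cause of each move was not tested. Depth limits Rag1, with 21 UMIs in DKO and 0 in KO, and the values of KO cells holding 3 or more genes rest on 6 cells.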
